A study of Sus scrofa with 32 samples.

Results

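NFIB and the C/EBP genes encode DNA-binding proteins that control gene activity in hepatocytes, and 4 of them were followed in fetal pig liver: NFIB, of the nuclear factor I family, and CEBPA, CEBPB and CEBPD, of the CCAAT/enhancer-binding protein (C/EBP) family. They were taken through the probe sets, groups of probes meant to report 1 transcript, to which the array annotation gives exactly 1 of these symbols. There were 8 such probe sets among 23999 that were not controls: 2 for NFIB, 2 for CEBPA, 1 for CEBPB and 3 for CEBPD. Of these, 7 were among the 15327 probe sets that passed a filter on low signal, and the eighth, for CEBPA, is accounted for below. The liver RNA came from Pietrain fetuses, whose dams (gilts) ate the control or the methyl-enriched diet while pregnant, and it was collected at 35, 63 or 91 days post coitum (dpc). Each diet had 5 arrays at 35 dpc, 6 at 63 dpc and 5 at 91 dpc, which makes 32 in all. The labels give neither the make-up of the diets nor the dam, litter or sex behind an array, so the p-values measure only the spread between these arrays.

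Nuclear factor I proteins bind DNA as pairs at a palindromic site, and NFIB is best known for the maturation of the lung and brain late in gestation. C/EBP proteins bind through a basic leucine zipper, pair with each other and act on many of the same promoters. CEBPA is known as the factor that holds hepatocytes in a differentiated, non-dividing state and turns on genes of glucose, urea and lipid handling, and it also drives the granulocyte lineage. CEBPB and CEBPD are known for their rapid induction by inflammatory cytokines and glucocorticoids in the acute phase response.

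All signals are on a log2 scale, on which a step of 1 is a doubling, and ran from 2.20 to 16.56. Precision is limited by how many arrays there are. The tissue label was checked against 14 hepatocyte markers, such as ALB and TTR, of which all 14 passed the filter, with a mean signal per array between 14.33 and 15.26. The gap between the spike-in controls bioC and bioB parted the arrays into 18 with a large gap (1.48 to 1.96) and 14 with a small one (0.24 to 0.41), called high-gap and low-gap arrays here. Every group held 3 high-gap arrays, with 2 low-gap ones at 35 and 91 dpc and 3 at 63 dpc. Between high-gap and low-gap arrays limma called 24.1% of the probe sets different, so values within each kind are given where they matter. In whole liver, fewer cells of a type and less RNA per cell cannot be told apart.

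NFIB rose steeply through gestation. Its brighter probe set had signals of 4.51, 4.39, 3.46, 4.33 and 3.91 in the 5 control arrays at 35 dpc, and of 3.91, 4.44, 4.06, 3.49 and 3.76 in the 5 methyl-diet arrays. At 63 dpc the control arrays ran from 3.91 through a median of 5.68 to 6.59 and the methyl-diet arrays from 4.92 through 5.75 to 6.52. At 91 dpc the control arrays had 8.40, 7.60, 9.001, 8.05 and 8.88, and the methyl-diet arrays 8.63, 8.35, 8.82, 8.02 and 9.12. Every array at 91 dpc lay above every array at 63 or 35 dpc, while 1 control array at 63 dpc lay within the range of 35 dpc. The share of all probe sets parted by age in this way was not counted, so the parting by itself does not set NFIB apart.

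The mean NFIB signal went from 4.03 ± 0.38 (SD, n = 10) at 35 dpc to 5.63 ± 0.78 (n = 12) at 63 dpc and 8.49 ± 0.49 (n = 10) at 91 dpc. In the first interval it rose by 1.61 ± 0.25 (SE) on the log2 scale, or 3.05-fold (limma adjusted p = 2.93e-06). In the second it rose by 2.85 ± 0.25, or 7.22-fold (limma adjusted p = 9.94e-11), which ranked 32 among 15327 probe sets by absolute log2 difference. From 35 to 91 dpc the rise was 22.0-fold (4.46 ± 0.26, limma adjusted p = 1.8e-15).

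The dimmer NFIB probe set moved the same way, from 3.48 ± 0.17 at 35 dpc to 4.38 ± 0.67 and then 7.43 ± 0.50. Its rise was 1.86-fold in the first interval (0.90 ± 0.22, limma adjusted p = 0.000776) and 8.29-fold in the second (3.05 ± 0.22, limma adjusted p = 1.78e-12), the latter ranking 20 by absolute log2 difference. Its 91 dpc arrays, from 6.65 to 8.07, also lay above all earlier ones, whose highest was 5.63. At 35 dpc 5 of 10 arrays were within 0.01 of its lowest value of 3.35, and 7 of 10 shared their value with another array to within 0.001, so a further fall there could not have been seen and the rise of 0.90 may be understated.

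Across the 32 arrays the NFIB probe sets had a Pearson correlation of 0.96, and of 0.70 for deviations from the group means, as a description of probe sets measured on the same arrays. Between 35 and 63 dpc the brighter one rose by 0.71 more, which is given as a description, since the dimmer one stood at its lowest value in 5 of 10 arrays at 35 dpc. Between 63 and 91 dpc the dimmer one rose by 0.20 more (brighter minus dimmer -0.20), which was within the spread (permutation test, two-sided, adjusted p = 0.329 over 10 such comparisons). Both probe sets rose in high-gap arrays (1.95 and 1.12 in the first interval, 2.92 and 3.08 in the second). In low-gap arrays the brighter one rose by 1.22 and 2.62 and the dimmer one by 0.67 and 2.91, of which the 0.67 did not pass (limma adjusted p = 0.169). At 91 dpc the ranges of the brighter NFIB probe set just missed each other: high-gap arrays had 8.40 to 9.12 and low-gap arrays 7.60 to 8.35. How many of all probe sets part the array kinds in this way was not counted. The order was not the same at every age. High-gap arrays averaged 3.94 ± 0.35 (SD, n = 6) at 35 dpc, below the 4.16 ± 0.45 (n = 4) of low-gap ones. The means at 63 dpc were 5.89 ± 0.64 for high-gap arrays and 5.38 ± 0.87 for low-gap ones. Over all ages the high-minus-low difference of this probe set was 0.37 ± 0.20 (SE) and was not called (limma adjusted p = 0.177).

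**Figure D1:**
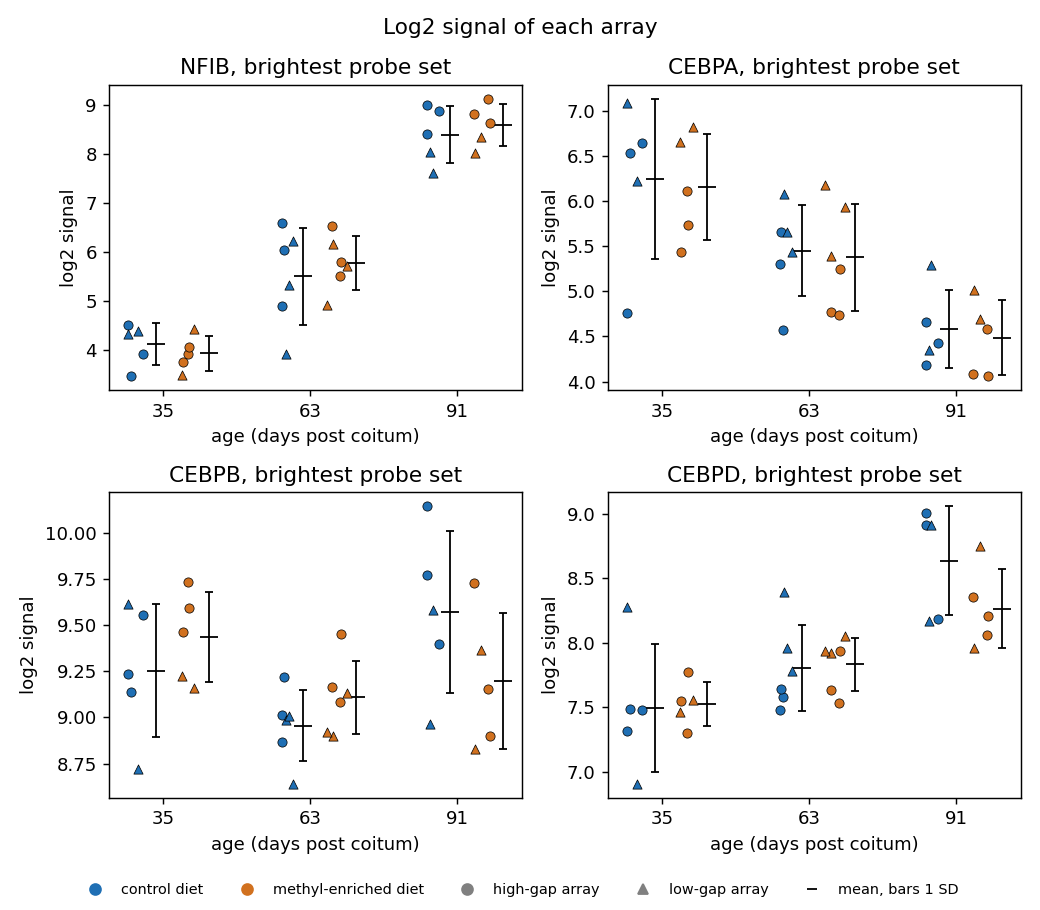
Log2 signal of each array (y axis) against age in days post coitum (x axis) for the brightest probe set of NFIB, CEBPA, CEBPB and CEBPD. Blue is the control and orange the methyl-enriched diet, circles are high-gap and triangles low-gap arrays, and bars show the mean ± 1 SD of a group. NFIB at 91 dpc (7.60 to 9.12) lies above all earlier arrays, CEBPA descends with overlap between ages, CEBPB is lowest on average at 63 dpc, and CEBPD is highest on average at 91 dpc.

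CEBPA moved in the opposite direction and fell in both intervals. At 35 dpc its brighter probe set had 4.76, 6.22, 6.53, 7.08 and 6.64 in the control arrays and 6.11, 6.82, 5.74, 6.66 and 5.44 in the methyl-diet arrays. At 63 dpc the control arrays ran from 4.57 through a median of 5.54 to 6.08 and the methyl-diet arrays from 4.74 through 5.32 to 6.17. At 91 dpc the control arrays had 4.66, 5.29, 4.18, 4.35 and 4.43 and the methyl-diet arrays 4.06, 4.69, 4.08, 5.02 and 4.58. The ages overlapped, and control replicate 1 at 35 dpc, with 4.76, was within the range of the 91 dpc arrays.

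The mean CEBPA signal went from 6.20 ± 0.71 (SD, n = 10) to 5.41 ± 0.52 (n = 12) and 4.53 ± 0.40 (n = 10). It fell by 0.79 ± 0.24 (SE) on the log2 scale between 35 and 63 dpc (limma adjusted p = 0.00586) and by 0.88 ± 0.24 between 63 and 91 dpc (limma adjusted p = 0.00244). Over the whole period the level fell 3.17-fold (log2 difference -1.66 ± 0.25, limma adjusted p = 5.87e-07). The falls passed in high-gap arrays alone (-0.82 and -0.71) and in low-gap arrays alone (-0.91 and -0.94).

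CEBPA was also lower in high-gap than in low-gap arrays, by 0.69 on the log2 scale (log2 difference -0.69 ± 0.16 SE, limma adjusted p = 0.00181). The mean of 7 erythroid markers, genes of developing red cells such as ALAS2 and KLF1, fell alongside CEBPA, from 10.51 ± 0.26 (SD) at 35 dpc to 9.99 ± 0.24 and 8.22 ± 0.38. With that mean as a covariate, the CEBPA differences became -0.44 (limma adjusted p = 0.212) and 0.30 (limma adjusted p = 0.793), so neither fall was called. The difference from 35 to 91 dpc became -0.14 and lost its call as well (limma adjusted p = 0.911). The NFIB rises were still called with it, at 1.59 (limma adjusted p = 0.000172) and 2.80 (limma adjusted p = 0.0127) for the brighter probe set. The erythroid mean itself followed age, with arrays from 9.62 to 10.44 at 63 dpc and from 7.62 to 8.95 at 91 dpc. Among its genes TFRC varied most within an age (SD 1.40 to 1.51) and passed in neither interval. HBB rose by 1.34 and 0.68, while HBE1, also a globin gene, fell most, by 1.56 and 4.08. A fit with this covariate can therefore hardly part age from the erythroid mean, and no conclusion on red cell content is drawn from calls lost or kept with it. The other CEBPA probe set stood at the lowest value, 2.20, in all 32 arrays and failed the filter, so it carries no information on age or diet.

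CEBPB, the cytokine-responsive family member, dipped at 63 dpc and returned. At 35 dpc it had 9.23, 8.72, 9.14, 9.62 and 9.56 in the control arrays and 9.73, 9.16, 9.59, 9.23 and 9.46 in the methyl-diet arrays. At 63 dpc the control arrays ran from 8.64 through a median of 8.996 to 9.22 and the methyl-diet arrays from 8.90 through 9.11 to 9.45. At 91 dpc the control arrays had 10.14, 9.58, 9.77, 8.96 and 9.40 and the methyl-diet arrays 8.90, 9.37, 9.73, 8.83 and 9.16. All ages overlapped, and the widest spread was at 91 dpc.

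The mean CEBPB signal was 9.34 ± 0.31 (SD, n = 10), 9.03 ± 0.20 (n = 12) and 9.38 ± 0.43 (n = 10). It fell by 0.31 ± 0.13 (SE) between 35 and 63 dpc (limma adjusted p = 0.0377) and rose by 0.35 ± 0.13 between 63 and 91 dpc (limma adjusted p = 0.0204). From 35 to 91 dpc the difference was 0.04, with a 95% interval from -0.24 to 0.31 (limma adjusted p = 0.793). Both calls were close to the threshold. The first was lost in high-gap arrays alone (-0.32, limma adjusted p = 0.0917), in low-gap arrays alone (-0.25, limma adjusted p = 0.353), with array weights (-0.26, limma adjusted p = 0.0722) and with no filter (-0.31, limma adjusted p = 0.0573). The second held in high-gap arrays (0.38, limma adjusted p = 0.0494) and was lost in low-gap arrays (0.25, limma adjusted p = 0.353). The first did not survive the removal of any 1 of 9 arrays: control replicates 4 and 5 and methyl-diet replicates 1, 3 and 5 at 35 dpc, or control replicates 5 and 6 and methyl-diet replicates 1 and 3 at 63 dpc, with values from -0.31 to -0.27. The second was lost without control replicate 1 at 91 dpc (0.28, limma adjusted p = 0.0572) or methyl-diet replicate 3 at 91 dpc (0.28, limma adjusted p = 0.0561). Once the erythroid mean entered the fit, the later difference turned to -0.76 (limma adjusted p = 0.0827), and the first was -0.64 (limma adjusted p = 0.000239).

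CEBPD, the partner of CEBPB in the acute phase response, was highest at 91 dpc by its brightest probe set. At 35 dpc it had 7.32, 6.91, 7.49, 8.28 and 7.48 in the control arrays and 7.30, 7.55, 7.77, 7.46 and 7.55 in the methyl-diet arrays. At 63 dpc the control arrays ran from 7.48 through a median of 7.71 to 8.39 and the methyl-diet arrays from 7.53 through 7.93 to 8.06. At 91 dpc the control arrays had 8.91, 8.91, 9.001, 8.17 and 8.18 and the methyl-diet arrays 8.21, 8.75, 8.35, 7.96 and 8.06. The ages overlapped, with 3 control arrays at 91 dpc near 9 and the other 2 within the range of 63 dpc.

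The mean CEBPD signal was 7.51 ± 0.35 (SD, n = 10) at 35 dpc, 7.82 ± 0.26 (n = 12) at 63 dpc and 8.45 ± 0.40 (n = 10) at 91 dpc. It rose 1.55-fold between 63 and 91 dpc (log2 difference 0.63 ± 0.14 SE, limma adjusted p = 0.000378) and 1.92-fold from 35 to 91 dpc (0.94 ± 0.15, limma adjusted p = 1.39e-06). The first interval gave 0.31 ± 0.14 and did not pass (limma adjusted p = 0.0624). It passed without control replicate 4 at 35 dpc (0.41), control replicate 1 at 63 dpc (0.34) or methyl-diet replicate 4 at 63 dpc (0.34). The rise between 63 and 91 dpc was 0.82 in high-gap arrays (limma adjusted p = 0.000231), 0.44 in low-gap arrays (limma adjusted p = 0.241) and 0.19 with the erythroid covariate (limma adjusted p = 0.779). With that covariate the difference from 35 to 91 dpc was 0.37 and also lost its call (limma adjusted p = 0.59).

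Across ages the other CEBPD probe sets did not follow the brightest one. Over deviations from the group means the second had a Pearson correlation of 0.59 with the brightest, and the third 0.08. The second went from 5.17 ± 0.52 to 5.17 ± 0.74 and 4.82 ± 0.48, and neither interval passed (0.01 ± 0.26 and -0.36 ± 0.26, limma adjusted p = 0.987 and 0.238). From 35 to 91 dpc it had -0.35 (limma adjusted p = 0.227), opposite in sign to the brightest one. That fall was called with the spike-in gap as a block (-0.35, limma adjusted p = 0.0489), in high-gap arrays alone (-0.37, limma adjusted p = 0.0169) and after quantile normalization (-0.68, limma adjusted p = 0.02), while the erythroid covariate turned it to 1.07 (limma adjusted p = 0.362). It was lower in high-gap arrays than in low-gap ones by more than any other probe set of the 4 genes (log2 difference -0.94 ± 0.13 SE, limma adjusted p = 3.44e-06). The third was dim, at 2.90 ± 0.57, 2.44 ± 0.21 and 2.42 ± 0.15, and fell by 0.45 ± 0.15 between 35 and 63 dpc (limma adjusted p = 0.01). It lay above the 40th percentile of its array in 5 arrays at 35 dpc, 2 at 63 dpc and 0 at 91 dpc, so it passed the filter mostly through the age at which it was highest, and its fall supports nothing further. Between 63 and 91 dpc the brightest CEBPD probe set changed by 0.99 more than the second (permutation test, two-sided, adjusted p = 0.0005), and between 35 and 63 dpc by 0.30 more (permutation adjusted p = 0.188). The direction given for CEBPD is therefore that of 1 of its 3 probe sets.

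**Figure D2:**
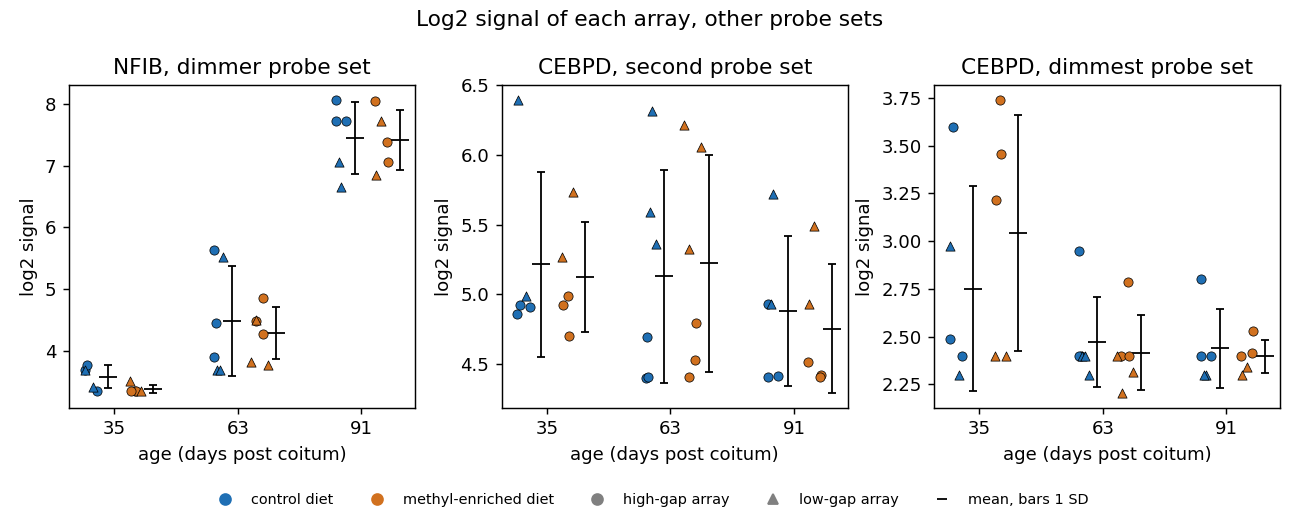
Log2 signal of each array (y axis) against age in days post coitum (x axis) for the dimmer NFIB probe set and the second and dimmest CEBPD probe sets, with colours, shapes and bars as for the brightest ones. NFIB rises to 6.65 to 8.07 at 91 dpc, the second CEBPD probe set sits mostly higher in low-gap arrays, and the dimmest one lies between 2.2 and 2.6 apart from 5 arrays at 35 dpc, 2 at 63 dpc and 1 at 91 dpc.

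Counted over the 7 probe sets, limma called 5 different between 63 and 35 dpc (2 higher and 3 lower), where 60.5% of all probe sets were called, 32.5% higher and 28% lower. Between 91 and 63 dpc it called 5 (4 higher and 1 lower), against 58.5% of all probe sets, 29.5% higher and 29% lower. Between 91 and 35 dpc it called 5 (3 higher and 2 lower), against 79.9% of all probe sets, 40.8% higher and 39.1% lower. The dimmest CEBPD probe set, whose fall was set aside above, is 1 of the lower calls between 63 and 35 dpc and between 91 and 35 dpc. Without it, 4 of 6 were called in each of these comparisons (2 higher and 2 lower, then 3 higher and 1 lower). With most of the array called in each age comparison, a call by itself sets none of these genes apart. The NFIB change stood higher in rank than those of the other genes: by their brightest probe sets CEBPA ranked 3507, CEBPD 5506 and CEBPB 8694 by absolute log2 difference between 91 and 63 dpc.

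The changes of the C/EBP genes differed from each other, but several of these differences did not hold with the erythroid covariate, which itself followed age. The CEBPD change exceeded the CEBPA change by 1.09 between 35 and 63 dpc (permutation test, two-sided, adjusted p = 0.00068) and by 1.51 between 63 and 91 dpc (permutation adjusted p = 0.0002, from the smallest p the resampling can give). The CEBPB change exceeded the CEBPA change by 1.23 in the second interval (permutation adjusted p = 0.00065) and by 0.47 in the first (permutation adjusted p = 0.156). The CEBPD change exceeded the CEBPB change by 0.62 in the first interval (permutation adjusted p = 0.00065) and by 0.28 in the second (permutation adjusted p = 0.0729). The sign of each of these 6 differences was the same in both kinds of array. With the erythroid mean in the fit, CEBPD minus CEBPA came to 0.62 in the first interval (95% interval 0.08 to 1.15) and -0.10 in the second (-1.30 to 1.10), and CEBPB minus CEBPA to -0.21 (-0.85 to 0.44) and -1.06 (-2.50 to 0.39). CEBPD minus CEBPB then had 0.82 (0.49 to 1.16) and 0.95 (0.21 to 1.70). With the second CEBPD probe set in place of the brightest and no covariate, CEBPD minus CEBPB was 0.32 in the first interval (-0.32 to 0.96) and -0.71 in the second (-1.35 to -0.07), while CEBPD minus CEBPA was 0.79 and 0.52. The pairs were chosen after the values had been seen.

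**Figure D3:**
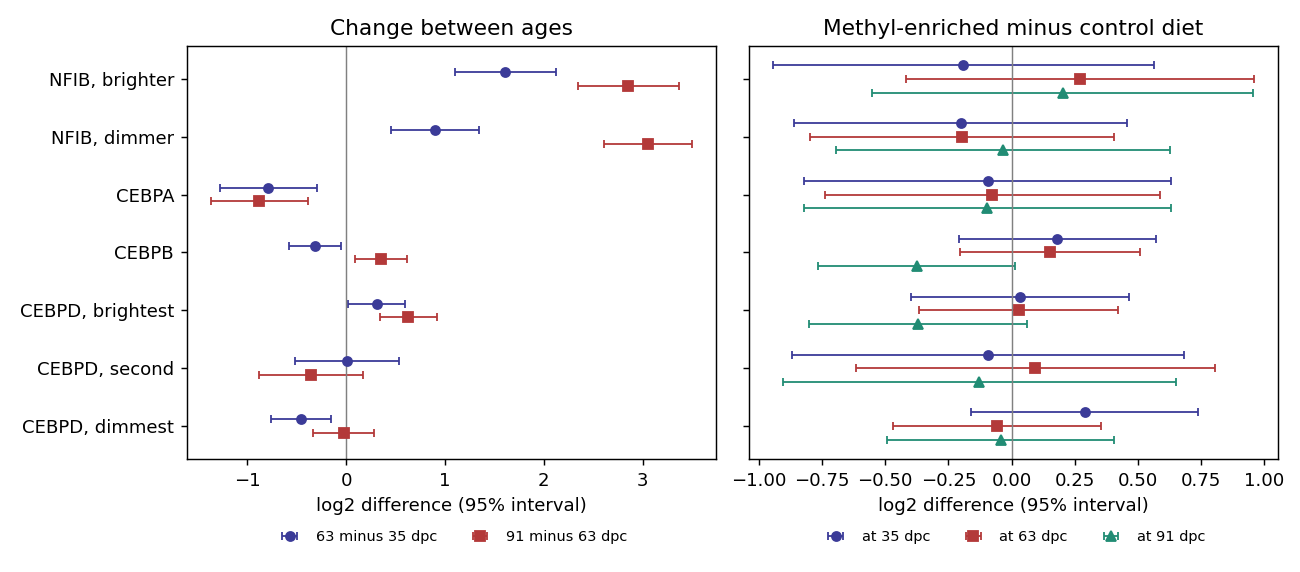
Fitted log2 differences (x axis, bars 95% intervals) of the 7 probe sets that passed the filter, between ages (left) and between diets at each age (right). Between 63 and 91 dpc the NFIB probe sets lie at 2.85 and 3.05 and CEBPA at -0.88, while all intervals between diets include 0.

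The diet comparison asks whether the gestation diet changed these genes at a given age, and no member passed it. At 35 dpc limma called 0 of 7 (0 with an unadjusted p under 0.05). Of all probe sets 0.0391% were called there, and 933 had an unadjusted p under 0.05. At 63 dpc it called 0 of 7 (0 unadjusted), against 0% of all probe sets, 219 of which had an unadjusted p under 0.05. At 91 dpc it called 0 of 7 (0 unadjusted), against 0.0718% of all probe sets and 1000 unadjusted. Averaged over ages it called 0 of 7 (0 unadjusted), against 0% of all probe sets and 685 unadjusted.

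The diet differences nearest to the threshold were those of CEBPB and CEBPD at 91 dpc. CEBPB averaged 9.57 in control and 9.20 in methyl-diet arrays, a difference of -0.38 ± 0.19 (SE, 95% interval -0.77 to 0.01, limma adjusted p = 0.797). CEBPD averaged 8.64 and 8.26, a difference of -0.37 ± 0.21 (95% interval -0.80 to 0.06, limma adjusted p = 0.875). In both genes the arrays of the diets overlapped. NFIB differed between diets by 0.20 at 91 dpc with an interval from -0.55 to 0.96, and CEBPA by -0.10 with an interval from -0.82 to 0.63. A diet difference smaller than these intervals was not detectable with this number of arrays.

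Fitted within each diet, the CEBPB rise between 63 and 91 dpc was 0.62 ± 0.18 (SE) under the control diet (limma adjusted p = 0.00686) and 0.09 ± 0.18 under the methyl-enriched diet (limma adjusted p = 0.737). The difference between these rises, -0.53 ± 0.26, was not called (limma adjusted p = 1). CEBPD rose by 0.83 ± 0.20 under the control diet (limma adjusted p = 0.00131) and had 0.43 ± 0.20 under the methyl-enriched diet (limma adjusted p = 0.0843), a difference of -0.40 ± 0.29 (limma adjusted p = 1). NFIB rose by 2.89 and 2.82 in the same interval, and by 1.38 and 1.84 in the one before, under the control and methyl-enriched diet. The F test for a diet difference that varied with age called 0 of 7 members and 0% of all probe sets (660 with an unadjusted p under 0.05), and CEBPB had the lowest p among the members, 0.0784 before adjustment.

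Of 7 other C/EBP and nuclear factor I genes listed, 4 were named on the array and all 4 passed the filter. In each interval 2 rose and 0 fell, with median log2 differences of 0.32 and 0.53 beside 0.05 and -0.03 for all probe sets. That is 50% called in each, against 60.5% and 58.5% of all probe sets. NFIA, the closest relative of NFIB among them in pattern, went from 3.27 ± 0.54 (SD) to 4.76 ± 0.47 and 6.55 ± 0.39, rising by 1.49 ± 0.20 (SE, limma adjusted p = 2.73e-07) and 1.79 ± 0.20 (limma adjusted p = 8.84e-09). NFIC, another family member, rose in the second interval (0.84 ± 0.21, limma adjusted p = 0.000913) and had 0.05 in the first, which did not pass. CEBPG, a short C/EBP protein that pairs with the others, rose by 0.43 ± 0.18 in the first interval (limma adjusted p = 0.0402). DDIT3, the stress-induced C/EBP relative also called CHOP, had 0.21 and 0.09 and did not pass.

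Of 31 listed liver transcription factor genes, 16 were named on the array and 13 passed the filter. Between 35 and 63 dpc 5 rose and 0 fell (median 0.17), and between 63 and 91 dpc 4 rose and 2 fell (median -0.01). These are 38.5% and 46.2% called, below the 60.5% and 58.5% of all probe sets. NR5A2, a nuclear receptor of bile acid synthesis, rose by 1.80 ± 0.16 and then 1.36 ± 0.16 (limma adjusted p = 2.22e-10 and 2.18e-08). FOXA2, a factor that opens chromatin at liver genes, rose by 1.10 ± 0.13 and 0.52 ± 0.13. HHEX, FOXA1 and HNF4A rose in the first interval by 0.56, 0.55 and 0.30. In the second, GATA4 rose by 0.75. The xenobiotic sensor NR1I2 averaged 2.21, 2.20 and 3.50 and lay above the 40th percentile of its array in 7 arrays at 91 dpc and 0 before, so it passed the filter only through the age at which it was high and its call supports nothing. Without it the counts of 12 genes were 5 and 0, then 3 and 2. The secretory stress factor XBP1 and the oxysterol receptor NR1H3 fell by 0.36 and 0.38. Both NFIB probe sets had a larger log2 difference between 63 and 91 dpc than any of these 13 genes. Between 35 and 63 dpc this did not hold: NR5A2 (1.80) exceeded both NFIB probe sets (1.61 and 0.90), and FOXA2 (1.10) exceeded the dimmer one.

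**Figure D4:**
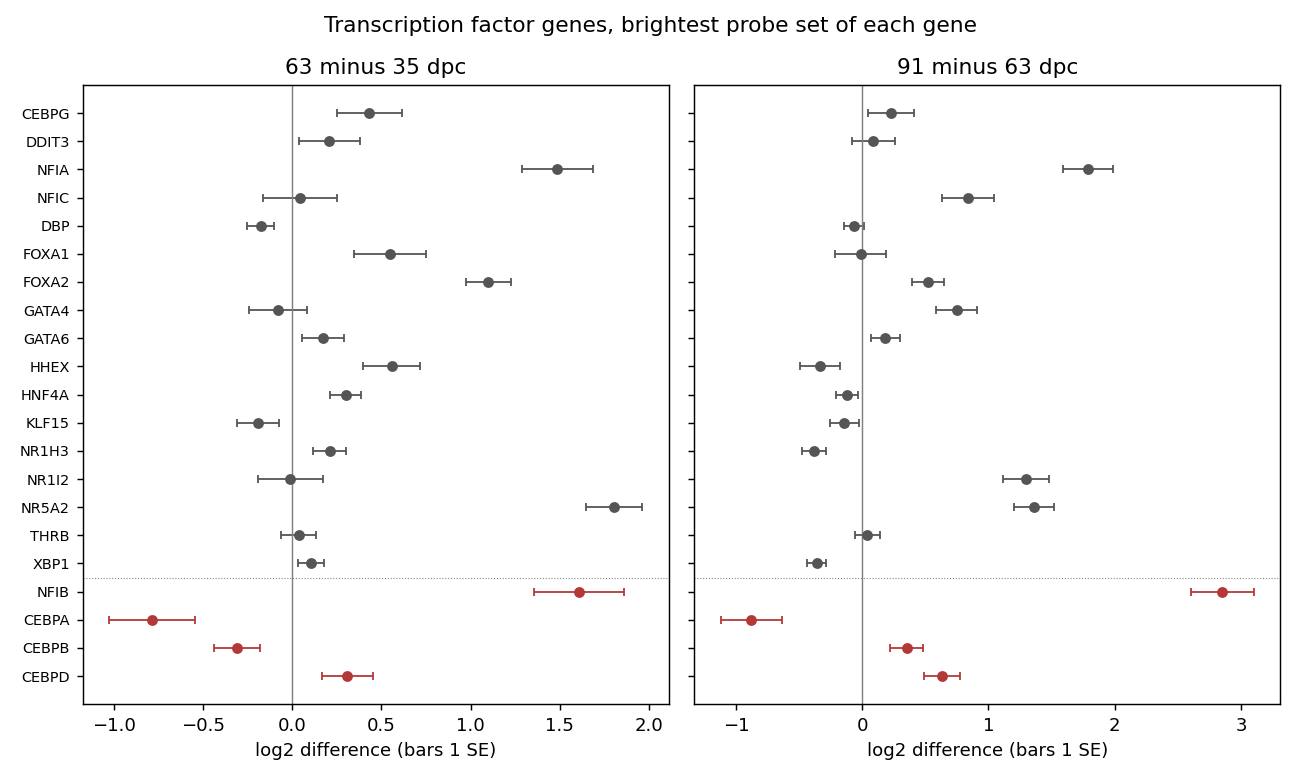
Log2 differences (x axis, bars 1 SE) of transcription factor genes between 35 and 63 dpc (left) and between 63 and 91 dpc (right), each gene by its brightest probe set; NFIB, CEBPA, CEBPB and CEBPD are in red below the dotted line. In the second interval NFIB (2.85) lies furthest right, ahead of NFIA (1.79) and NR5A2 (1.36), and CEBPA (-0.88) lies furthest left.

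Signals known to act upstream of C/EBP genes were measured by 9 genes that passed the filter of 15 listed. Between 35 and 63 dpc 3 rose and 4 fell, and between 63 and 91 dpc 3 rose and 2 fell. These are 77.8% and 55.6% called, against 60.5% and 58.5% of all probe sets. NR3C1, the glucocorticoid receptor, rose by 0.56 ± 0.14 (SE, limma adjusted p = 0.000742) and then by 0.82 ± 0.14 (limma adjusted p = 7.6e-06). HSD11B1, which regenerates active cortisol in the cell, fell by 0.45 ± 0.11 and then rose by 0.75 ± 0.11 (limma adjusted p = 7.57e-07). IL1R1, an interleukin receptor, rose by 1.32 and 1.33, whereas its ligand IL1B, named after its values were seen, fell by 0.80 and 0.70. STAT3, the relay of interleukin signals, fell by 0.69 ± 0.11 in the second interval (limma adjusted p = 2.38e-06), in which CEBPD rose. PER1, a glucocorticoid-responsive clock gene, fell by 0.81 in the first interval. The other glucocorticoid-responsive genes of the list, named after their values were seen, went the other way. TSC22D3 rose by 0.33 ± 0.09 (limma adjusted p = 0.00143), and FKBP5 had 0.42 ± 0.20 and did not pass (limma adjusted p = 0.0652). IL6 passed the filter mainly through 35 dpc (above the 40th percentile in 5, 1 and 0 arrays), and without it 3 of 8 genes rose and 3 fell in the first interval, while the second kept 3 and 2.

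Of 16 listed hepatocyte genes known as C/EBP targets, 11 passed the filter. In each interval 6 rose and 1 fell, with medians of 0.53 and 0.56, while CEBPA fell in both. That is 63.6% called in each, against 60.5% and 58.5% of all probe sets. ALB, TTR and SERPINA1 also belong to the 14 hepatocyte markers. Of those markers 7 rose and 1 fell in the first interval (median 0.12). In the second 5 rose and 4 fell (median 0.01). ALB, serum albumin, rose by 3.37 and 0.56, and F9, a coagulation factor whose promoter is a classical C/EBP target, rose by 1.28 ± 0.12 and 1.51 ± 0.12 (limma adjusted p = 6.52e-10 and 9.85e-12). APOB, the core protein of secreted lipoproteins, rose by 1.72 and 1.42. CPS1, the entry enzyme of the urea cycle, rose by 0.53 and 1.28, and TAT, a tyrosine-degrading enzyme, by 1.06 and 0.69. PCK1, an enzyme of gluconeogenesis named here as the 1 gene that fell, after its values were seen, fell by 0.68 in the first interval, and SERPINA1, alpha-1 antitrypsin, fell by 0.17 in the second.

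Acute phase genes, the plasma proteins that CEBPB and CEBPD induce in inflammation, were measured by 10 genes of 17 listed. Between 35 and 63 dpc 7 rose and 3 fell (median 0.54), and between 63 and 91 dpc 6 rose and 2 fell (median 0.46). The complement protein C3 rose by 1.37 and 0.76 and the fibrinogen chains FGG and FGB by 1.03 and 0.98 and then by 0.52 and 0.49. A2M, a broad protease inhibitor of plasma, rose by 0.78 and 0.42. SAA2, a serum amyloid A protein, fell by 0.76 ± 0.10 and then by 1.37 ± 0.10 (limma adjusted p = 1.31e-07 and 1.14e-12). HPX, which binds heme, fell by 0.56 and then rose by 0.53. HP, which binds hemoglobin and was named after its values were seen, fell by 0.42 and then rose by 0.35. This order of directions was seen in CEBPB, but also in DCN, VSIG4 and KRT19, markers of other liver cells. Those fell by 0.87, 0.56 and 0.89 and then rose by 1.29, 0.46 and 0.71. These lists were chosen with earlier results known, and their counts compare with 60.5% and 58.5% of all probe sets called.

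Marker genes of the other cells of fetal liver moved as well, as did most of the array. Of all probe sets 60.5% were called in the first interval and 58.5% in the second. The lists had 85.7% and 85.7% (erythroid), 100% and 100% (neutrophil) and 33.3% and 66.7% (macrophage) called. The others had 33.3% and 22.2% (mesenchyme), 60% and 60% (endothelial) and 100% and 66.7% (cholangiocyte). The part of these markers in the results was not tested beyond the erythroid covariate, which itself followed age. Of 7 measured erythroid markers 5 fell and 1 rose in each interval, and the list mean per array ran from 10.08 to 10.95 at 35 dpc, 9.62 to 10.44 at 63 dpc and 7.62 to 8.95 at 91 dpc. All 6 measured neutrophil markers rose and then fell, with list means of 7.30 to 8.50, 8.33 to 9.56 and 6.70 to 7.99. That order is opposite to the one of CEBPB. Of 9 macrophage markers 2 rose and 1 fell in the first interval, and 5 rose and 1 fell in the second, with list means of 6.90 to 7.62, 7.21 to 7.93 and 8.14 to 8.70. MRC1 and CD163, surface proteins of tissue macrophages, rose by 1.96 and 1.63 in the second interval, in which NFIB and the brightest CEBPD probe set also rose. On the same list MARCO fell by 0.49 (limma adjusted p = 0.0193). AIF1, C1QA and C1QC had 0.05, -0.01 and 0.10 and did not pass. Of 9 mesenchyme markers 3 fell and 0 rose, and then 2 rose and 0 fell (1 of 8 without RGS5, which passed the filter mainly through 91 dpc), with list means between 6.70 and 7.64 over all arrays. Of 5 endothelial markers 3 rose and 0 fell, and then 2 rose and 1 fell, with list means of 6.73 to 7.42, 7.70 to 8.09 and 7.62 to 8.16. TEK, an endothelial receptor kinase, rose by 1.74 and 1.16 and PECAM1, an endothelial adhesion protein, by 0.53 and 0.40, in the intervals in which NFIB rose, while VWF fell by 1.76 in the second. Of 3 cholangiocyte markers 1 rose and 2 fell, and then 2 rose and 0 fell, with list means of 5.59 to 6.50, 5.84 to 6.77 and 6.08 to 7.96. EPCAM, an adhesion protein of bile duct cells and of immature hepatic cells, rose by 2.54 and 1.195. KRT19 fell by 0.89 and then rose by 0.71, while SPP1 fell by 0.76 and then had 0.13, which did not pass. ITGAM and MMP9 of the neutrophil list, COL3A1 and LUM of the mesenchyme list, KDR of the endothelial list and SOX9 and CFTR of the cholangiocyte list were on the array but did not pass the filter.

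The genes most like each member in pattern were taken from the single-symbol probe sets that passed, by Pearson correlation over the 32 arrays, which share their age groups and array kinds. For NFIB they were KMT2E (0.98), a chromatin-binding protein, MBNL3 (0.98), a splicing regulator, ST8SIA4 (0.97), RAD50 (0.97), a DNA repair protein, and ANKRD28 (0.97). For CEBPA they were ARPC4 (0.94), of the actin-branching complex, BAX (0.93), a promoter of cell death, CD82 (0.93), WDR18 (0.92) and PFDN6 (0.92). For CEBPB they were FKBP10 (0.85), a collagen chaperone, LSR (0.78), a lipoprotein receptor, SCAP (0.77), the escort of the sterol-sensing factors, SLC9A3R2 (0.73) and DESI2 (0.73). For CEBPD they were BCAR3 (0.84), GSTA4 (0.84), FBXO21 (0.83) and the antigen presentation genes CD74 (0.83) and SLA-DRB1 (0.82).

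Over deviations from the group means, which remove age and diet, the order changed. KMT2E again came first for NFIB (0.86, by another probe set), followed by PPP4R3B (0.84), EIF4G3 (0.84), PIKFYVE (0.84) and SRSF6 (0.83). For CEBPA, BAX (0.88), ARPC4 (0.86) and CD82 (0.82) appeared again, beside ACP5 (0.85) and EEF1AKMT1 (0.84). For CEBPB, FKBP10 (0.80) appeared again, beside CTTN (0.81), PLOD3 (0.80), KRTCAP2 (0.80) and RPL37 (0.80). For CEBPD the genes were all others, led by MAPK1IP1L (0.76), with FAM219B, ATP2A2, DCTD and ISG20L2 between 0.72 and 0.73. Most of these held in both array kinds, but CD82 with CEBPA came to 0.76 among the high-gap arrays but 0.46 among the low-gap ones, and ISG20L2 with CEBPD to 0.41 and 0.88.

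**Figure D5:**
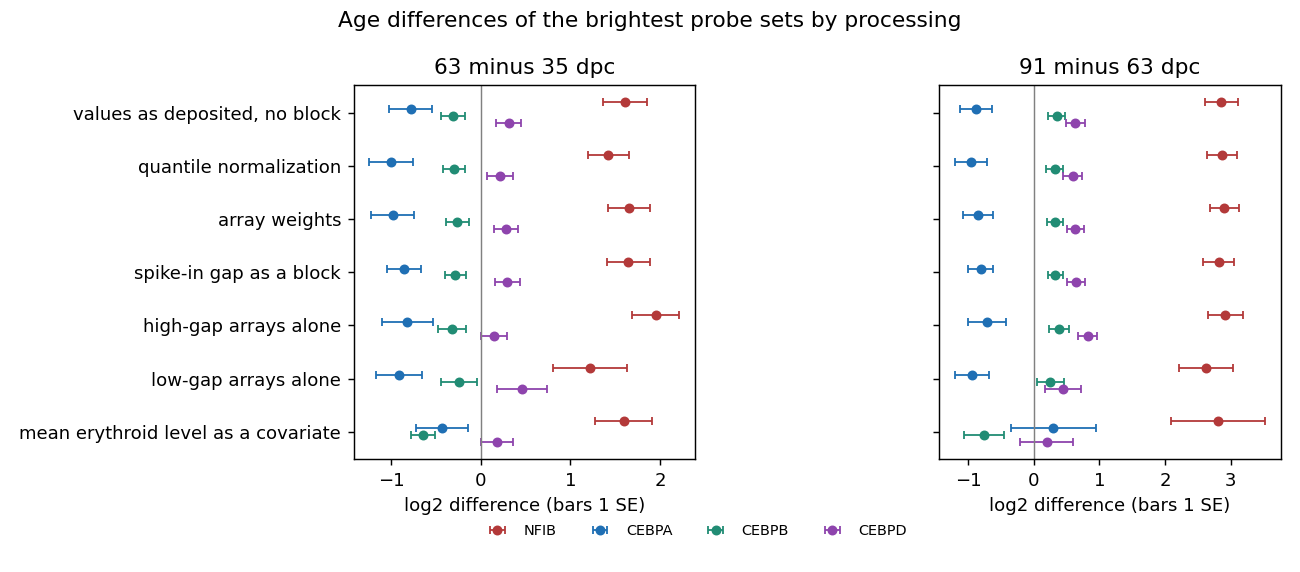
Log2 differences (x axis, bars 1 SE) of the brightest probe set of NFIB, CEBPA, CEBPB and CEBPD between 35 and 63 dpc (left) and between 63 and 91 dpc (right) under 7 processing settings. NFIB keeps to the right of 0 in every setting drawn, while with the erythroid covariate CEBPA moves from -0.88 to 0.30 and CEBPB from 0.35 to -0.76 in the second interval.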

How the data were processed

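Fetal liver RNA, 1 sample per array, was measured on a porcine expression array. Per the labels' protocols, total RNA was treated with DNase and column-cleaned, and 0.5 ug was made into biotinylated cRNA. The deposited values are log2 signals per probe set; the software GCOS 1.1.1 appears, per the submitters' processing notes, without a role, and the summarization and normalization used by the authors are not given in the sources used here. Values were used as deposited. Array medians ran from 3.84 to 4.23. Of 24123 probe sets, 124 controls were set aside, and 15327 lay above their array's 40th percentile in at least 5 arrays. Symbols came from the array annotation; sequences and coordinates of the members were not analysed here. RefSeq genes of assembly Sscrofa 11.1 were used to look for newer symbols, and 0 were changed.

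limma 3.58.1 in R 4.3.3 (with the R package data table, version 1.17.8) fitted 1 mean per age and diet with an intensity trend and 26 residual degrees of freedom. Age differences average the diets. A probe set was called at a p under 0.05 after Benjamini-Hochberg adjustment across all 15327 tested in that contrast, and intervals are 95%. Changes of 1 probe set minus another were compared by a two-sided permutation test over arrays (scipy 1.17.1 in Python 3.11.15, 100000 resamples, adjusted over 10), added after the values had been seen. The members, lists and tests were chosen with earlier results of these data known. Each gene was led by its brightest probe set. The genes named are all members and up to 4 of each list by smallest p in each interval (8 for transcription factors, plus all relatives). The 5 genes most correlated with each member are named too. IL1B, PCK1, HP, IL6, TFRC, TSC22D3, FKBP5, MARCO, C1QA and C1QC were added after their values were seen. The fit was tested on simulated data for the 91 minus 63 dpc contrast: of planted log2 changes of 0.5, 1 and 2 it called 37.3%, 86.6% and 100%. The other simulated probe sets held no change, and 12 of them were called. In the data 58.5% of all probe sets were called in this contrast, and the simulation had no array kinds. These shares therefore check the code and do not give the power of the real fit.

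Alternatives were the moderation (no trend, or robust), the filter (none, or the 60th percentile), quantile normalization, array weights, the compared ages alone, the spike-in gap (parted at 1.2) as a block, high-gap or low-gap arrays alone, the mean erythroid level as a covariate, and each array left out in turn.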

Additional observations from a re-analysis of the deposited data

Results flagged for a closer look

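Of 42 groups of 5 or 6 arrays examined over the 7 probe sets, 5 held an array further from its neighbours than Dixon's 95% critical value; chance alone puts about 1 in 20 groups there. No array of the brightest NFIB, CEBPA, CEBPB or CEBPD probe set was among them. In the dimmer NFIB probe set, methyl-diet replicate 4 at 35 dpc had 3.50 while the other 4 arrays stood at 3.35. In the second CEBPD probe set, control replicate 4 at 35 dpc had 6.40, the highest of its group. In the dimmest CEBPD probe set, control replicate 1 at 63 dpc had 2.95, methyl-diet replicate 4 at 63 dpc had 2.78 and control replicate 1 at 91 dpc had 2.80, each the highest of its group.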

How the results depend on the processing

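Counting every result and setting other than arrays left out, 443 comparisons kept direction and side of the threshold, 15 lost a call, 3 gained one (all the second CEBPD probe set from 35 to 91 dpc, at -0.35 with the block, -0.37 in high-gap arrays and -0.68 after quantile normalization), 21 reversed and 4 counts moved by over 1.5 times. The brighter NFIB probe set kept its call in both intervals under all of them; the dimmer one lost the first in low-gap arrays. The CEBPB fall from 35 to 63 dpc lost its call with no filter (-0.31, limma adjusted p = 0.0573), array weights (-0.26), high-gap arrays (-0.32) and low-gap arrays (-0.25). In low-gap arrays the CEBPB rise (0.25) and the CEBPD rise (0.44) after 63 dpc also lost theirs. With the erythroid covariate CEBPA had -0.44 and 0.30, CEBPB -0.76 and CEBPD 0.19 (second interval), CEBPA -0.14 and CEBPD 0.37 from 35 to 91 dpc, the count for 91 minus 63 dpc was 2, and from 35 to 91 dpc CEBPB had -1.40 (limma adjusted p = 0.00541). The count for 63 minus 35 dpc was 3 with array weights and 2 in low-gap arrays, and that for 91 minus 63 dpc 3 in low-gap arrays. The second CEBPD probe set turned from 0.01 between 35 and 63 dpc to -0.23 (quantile), -0.0909 (array weights), -0.0884 (block) and -0.34 (high-gap arrays, limma adjusted p = 0.0337), and with the erythroid covariate had 0.74 and 1.07 to 91 dpc from 63 and 35 dpc. Uncalled diet differences near 0 changed sign: CEBPD at 63 dpc (-0.0075) and CEBPB averaged (0.0074) after quantile normalization; CEBPA at 35 dpc, 63 dpc and averaged with array weights (0.0898, 0.0997, 0.0343); CEBPA at 35, 63 and 91 dpc and averaged (0.0858, 0.108, 0.0368, 0.0768) and CEBPD at 35 and 63 dpc (-0.0834, -0.0760) in low-gap arrays; CEBPA at 91 dpc (0.0516) with the erythroid covariate. The cause was not tested. Quantile normalization moved the median of all probe sets from 0.0049 to -0.15 between 35 and 91 dpc. The dimmest CEBPD probe set had no value under the stricter filter.

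With each array left out in turn, the range was -0.38 to -0.27 for CEBPB and 0.23 to 0.41 for CEBPD between 35 and 63 dpc, and 0.28 to 0.43 for CEBPB between 63 and 91 dpc. Ranges that crossed 0 without a call were -0.11 to 0.15 (second CEBPD probe set, first interval), -0.0709 to 0.0218 (dimmest CEBPD, second interval), -0.0320 to 0.115 (CEBPB, 35 to 91 dpc), and among diet differences -0.465 to 0.115, -0.253 to 0.0505 and -0.228 to 0.0812 (CEBPA at 35, 63 and 91 dpc), -0.113 to 0.230 and -0.0371 to 0.145 (CEBPD at 35 and 63 dpc), -0.0464 to 0.489 (NFIB at 63 dpc), -0.0117 to 0.167 (NFIB averaged) and -0.0645 to 0.0337 (CEBPB averaged). No paired analysis was possible because the replicate numbers follow accession order and pair no arrays.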
